A study of Saccharomyces cerevisiae with 36 samples.

Results

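The phosphate regulon of budding yeast was followed through 10 genes: the transporter genes PHO84 (YML123C) and PHO89 (YBR296C), SPL2 (YHR136C), the phosphatase genes PHO5 (YBR093C), PHO11 (YAR071W) and PHO8 (YDR481C), VTC3 (YPL019C), PHM6 (YDR281C), and the regulators PHO81 (YGR233C) and PHO4 (YFR034C). They were chosen, with earlier results of these data known, as targets and regulators of the pathway whose activator is exported from the nucleus by the carrier Msn5. Each was read by the probe set annotated to it. These were 10 of the 5338 genes tested. The probe set of PHO11 is of the kind that can match several transcripts, and its near-identical copy PHO12 has no probe set of its own in the table, so PHO11 and PHO12 cannot be told apart.

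RNA was measured on 36 Affymetrix yeast arrays, 2 for each of 18 groups. Cells with a deletion of MSN5 (msn5), cells with a deletion of MTR10 (mtr10) and the wild-type strain BY4742 were grown at 30 degrees C to an OD600 of 0.35. Each culture was then split and kept for 30 min in medium without amino acids (starved) or with them (fed). Per the labels all cultures then received cycloheximide at 100 µg/ml, which holds ribosomes on messages, and a 10 to 50% sucrose gradient separated polysome from non-polysome RNA, with total RNA measured beside them. The groups were starved and fed msn5, starved and fed mtr10, and starved and fed wild-type, each as polysome, non-polysome and total RNA. The labels call the replicates biological and describe each mutant as a deletion strain without saying whether several isolates were used. No group was starved of phosphate. The number of arrays limits the precision of every value. Cultures were measured in bulk, so a larger share of cells with a message and more of it per cell cannot be told apart.

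Yeast cells read the supply of inorganic phosphate through the transcription factor Pho4. With enough phosphate the cyclin and kinase pair Pho80 and Pho85 phosphorylates Pho4, Msn5 carries the phosphorylated protein out of the nucleus, and the targets are quiet. When phosphate runs low the inhibitor Pho81 blocks the kinase, Pho4 is imported by the carrier Pse1 and, with Pho2, turns on genes for phosphate uptake, for phosphatases that release phosphate from other compounds and for the handling of stored polyphosphate. Mtr10 is another nuclear carrier, an importer of proteins that also takes part in the traffic of tRNA.

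Levels are deposited log2 RMA signals and are set against each other within a probe set only. Differences are log2 differences ± the standard error of a limma fit to all 18 groups, and a gene was called at a Benjamini and Hochberg adjusted p under 0.05 over all 5338 genes. The 2 deleted genes were read first. MSN5 lay between 3.64 and 7.23 on the 12 msn5 arrays, against 10.94 to 11.99 on the 12 wild-type arrays, and MTR10 between 3.64 and 5.48 on the 12 mtr10 arrays, against 9.99 to 11.09 in wild-type. The highest of these low readings came from fed non-polysome RNA of each mutant: 6.85 and 7.23 for MSN5 in msn5, and 5.48 and 5.17 for MTR10 in mtr10. PSE1 was not called in any of the 12 comparisons of a mutant with wild-type.

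Some arrays stood apart in ways that touch the results below. On the second mtr10 array of fed non-polysome RNA PHO84 read 10.92, against 7.74 on its replicate and 7.27 to 8.58 on the other 10 mtr10 arrays. PHO84 had the largest rise of all genes between these replicates, and 4 genes were higher by more than 1 on it. Results that turn on this array are given with and without it. BY4742 is a strain of mating type alpha, and the alpha genes STE3 and MF(ALPHA)1 read 10.87 or more on all arrays, yet these and the 2 markers of mating type a moved with strain and condition. STE3 was called lower in all 12 comparisons of a mutant with wild-type, by 0.68 to 1.49 in msn5 and by 0.55 to 1.63 in mtr10. MF(ALPHA)1 was lower in starved msn5 by 0.62 to 0.71. STE2 lay between 13.07 and 13.48 on starved wild-type arrays, against 8.24 to 8.96 on fed ones, and MFA1 between 12.25 and 12.71, against 8.19 to 8.74. In mtr10 MFA1 read 11.72 to 12.91 on starved and 11.67 to 12.88 on fed arrays. The summed signal of STE2 and MFA1, as log2, was 12.61 to 13.03 on starved and 9.30 to 10.68 on fed msn5 arrays, 12.44 to 13.55 on starved and 11.999 to 13.141 on fed mtr10 arrays, and 13.72 to 14.09 on starved and 9.22 to 9.79 on fed wild-type arrays. The part of these markers in the results was not tested.

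In msn5 cells 9 of the 10 genes were higher than in wild-type, in fed and in starved cells and in each kind of RNA, and PHO4 was the exception. Fed and starved cells came from split cultures and both pools from a gradient, so these settings are not independent. The main fit took the arrays as independent. Over all genes tested, the share called higher was 6.58% in fed total, 9.25% in starved total, 5.47% in fed polysome, 6.41% in starved polysome, 9.48% in fed non-polysome and 10.7% in starved non-polysome RNA. None of the 10 was called lower. The median difference in total RNA was 2.05 over the 10 genes and -0.0051 over all genes in starved cells, and 2.37 and -0.02 in fed cells. For PHO84, SPL2, PHO5, PHO11, PHO81 and VTC3, which are 6 of the 10 genes, every msn5 array read higher than every array of the other strains. The plot of levels by strain, condition and kind of RNA shows all 36 values of each gene.

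**Figure D1:**
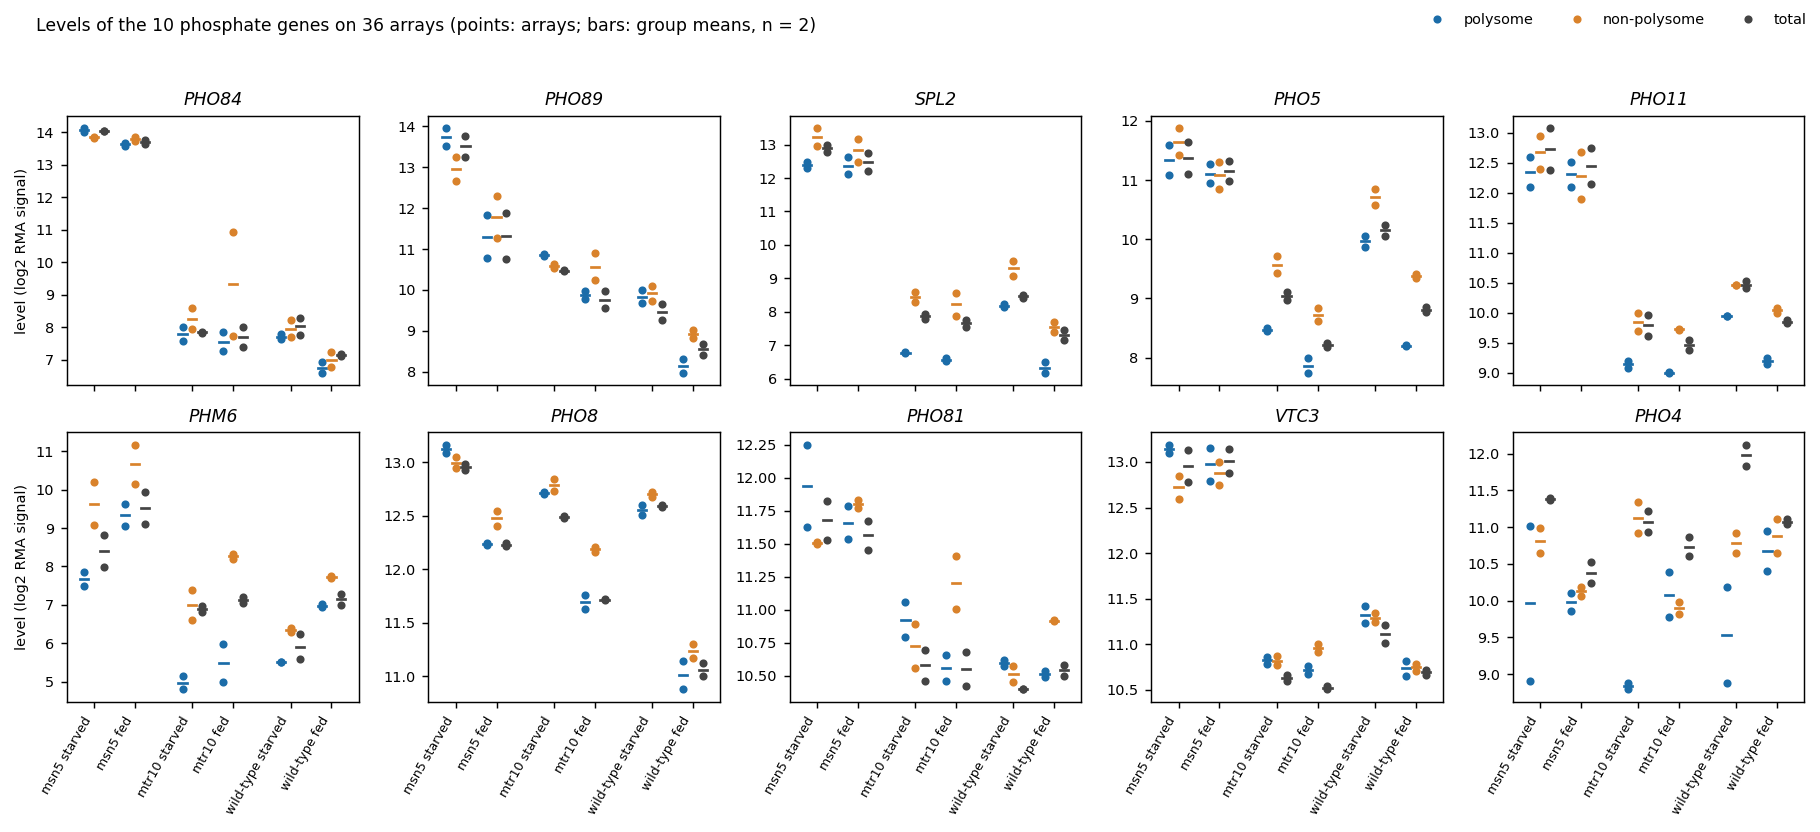
Levels of the 10 genes (log2 RMA signal, vertical axes, each on its own scale) by strain and condition (horizontal axes, msn5, mtr10 and wild-type, starved left of fed). Points are arrays and bars are means of 2 arrays, with colours for polysome, non-polysome and total RNA. PHO84 lies between 13.58 and 14.13 on the msn5 arrays and no higher than 10.92 on any other array, while the strains overlap for PHO4.

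PHO84 encodes the high-affinity phosphate transporter that takes up phosphate together with protons. In fed total RNA it read 13.76 and 13.66 in msn5, against 7.18 and 7.11 in wild-type. Starved cells gave 14.05 and 14.03 in msn5 and 7.76 and 8.29 in wild-type. The msn5 arrays lay near the top of the array's range, where the highest value of any probe set was 14.61, and no wild-type array came near them. The polysome and non-polysome values ran from 13.58 to 14.13 in msn5 and from 6.59 to 8.21 in wild-type. The difference was 6.57 ± 0.54 in fed total RNA (94.9-fold, adjusted p = 2.08e-08) and 6.02 ± 0.54 in starved total RNA (64.8-fold, adjusted p = 4.54e-08). Across the 4 pool comparisons it was between 5.90 and 6.88. PHO84 had the largest rise of all 5338 genes in each of the 6 comparisons. Its standard error of 0.54 carries the divergent mtr10 array, and without that array, a setting chosen after seeing the data, it was 0.24 at the same differences.

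SPL2 encodes a small protein that holds back low-affinity phosphate transport. It came next in rank in all 6 comparisons. SPL2 read 12.76 and 12.20 in fed msn5 total RNA, against 7.45 and 7.15 in wild-type, a difference of 5.18 ± 0.25 (36.3-fold, adjusted p = 1.38e-12). Starved cells gave 13.0004 and 12.7775 in msn5, against 8.43 and 8.49 in wild-type, and the difference was 4.43 ± 0.25 (21.5-fold, adjusted p = 2.39e-11). The wild-type values spread more than those of msn5 across the groups. They ran from 6.16 in fed polysome to 9.53 in starved non-polysome RNA, while the msn5 arrays lay between 12.12 and 13.48. In polysome RNA the difference was 6.04 ± 0.25 in fed and 4.22 ± 0.25 in starved cells.

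PHO89 encodes the other high-affinity transporter, which is driven by sodium and works best at alkaline pH. It read 11.88 and 10.75 in fed msn5 total RNA, against 8.41 and 8.68 in wild-type, a difference of 2.77 ± 0.36 (6.81-fold, adjusted p = 1.63e-05). Starved cells gave 13.77 and 13.26 in msn5 and 9.27 and 9.65 in wild-type, with a difference of 4.05 ± 0.36 (16.6-fold, adjusted p = 4.45e-08). PHO89 thus lay higher in starved than in fed cells of both strains, which is described with the starvation results. In wild-type fed polysome RNA PHO89 was not well above background on either array by the deposited detection p-values. Its value there is a bound, and msn5 was at least 9.01-fold higher (means of 11.30 in msn5 and 8.13 in wild-type, adjusted p = 2.73e-06).

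PHO5 and PHO11 encode acid phosphatases that are secreted to the cell wall. PHO5 read 11.32 and 10.99 in fed msn5 total RNA, against 8.77 and 8.85 in wild-type, a difference of 2.34 ± 0.20 (5.08-fold, adjusted p = 2.8e-08). Starved cells gave 11.65 and 11.11 in msn5, against 10.25 and 10.06 in wild-type, a difference of 1.23 ± 0.20 (2.34-fold, adjusted p = 0.000122). The msn5 levels of PHO5 were alike in both conditions, and the lowest msn5 array, at 10.85 in fed non-polysome RNA, was just above the highest wild-type array, at 10.84 in starved non-polysome RNA. PHO11 was higher in msn5 by 2.60 ± 0.25 in fed total RNA (12.75 and 12.15 in msn5 and 9.83 and 9.88 in wild-type) and by 2.25 ± 0.25 in starved total RNA (13.07 and 12.37 in msn5 and 10.41 and 10.53 in wild-type). Over the 6 comparisons the difference ran from 2.21 to 3.11 for PHO11 and from 0.94 to 2.91 for PHO5.

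PHO8 encodes the alkaline phosphatase of the vacuole. Its differences were the smallest among the 9 genes in the 3 starved comparisons, and only PHO81 had smaller ones in the 3 fed comparisons. The replicates of PHO8 were close. PHO8 read 12.25 and 12.22 in fed msn5 total RNA, against 10.999 and 11.122 in wild-type (1.17 ± 0.08, adjusted p = 2.56e-09). In starved total RNA it read 12.98 and 12.93 in msn5, against 12.60 and 12.58 in wild-type (0.36 ± 0.08, adjusted p = 0.00358). Its starved non-polysome difference of 0.30 ± 0.08 (adjusted p = 0.0121) was the msn5 call that single arrays ended. It was 0.25 to 0.28, with adjusted p from 0.0718 to 0.0887, without the first wild-type or the second msn5 array of that RNA.

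VTC3 encodes a subunit of the complex on the vacuole that makes polyphosphate. It read 13.14 and 12.88 in fed msn5 total RNA, against 10.72 and 10.66 in wild-type (2.32 ± 0.13, adjusted p = 2.81e-11), and 13.13 and 12.78 in starved msn5, against 11.21 and 11.01 in wild-type (1.85 ± 0.13, adjusted p = 9.38e-10). PHM6 encodes a protein of unknown function. Its msn5 arrays spread widely, from 7.50 in starved polysome to 11.18 in fed non-polysome RNA. Within each setting they still lay above wild-type, with differences from 2.16 ± 0.39 in starved polysome to 3.29 ± 0.39 in starved non-polysome RNA.

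The 2 regulators differed from each other. PHO81 encodes the inhibitor of the kinase and is itself a target of Pho4. It read 11.68 and 11.46 in fed msn5 total RNA, against 10.59 and 10.50 in wild-type (1.02 ± 0.17, adjusted p = 0.000249), and 11.82 and 11.53 in starved msn5, against 10.40 in both wild-type arrays (1.28 ± 0.17, adjusted p = 1.11e-05). PHO4, which encodes the activator, was not called in any of the 6 comparisons in the main fit. At least 1 alternative fit called PHO4 lower in fed total RNA. In fed total RNA it read 10.24 and 10.52 in msn5, against 11.04 and 11.11 in wild-type, without overlap and with a difference of -0.70 ± 0.43 (adjusted p = 0.342). In starved total RNA it read 11.37 and 11.40 in msn5, against 12.12 and 11.83 in wild-type (-0.59 ± 0.43, adjusted p = 0.35). The large error of PHO4 came with starved polysome RNA, where the replicates disagreed in 2 strains: 8.91 and 11.02 in msn5, and 10.19 and 8.88 in wild-type. The starved polysome difference was 0.43 ± 0.43 (adjusted p = 0.54) with all arrays. It became 1.49 without the first of these msn5 arrays, where PHO4 was called higher with 1 msn5 array left, and -0.62 without the second. Over the other 5 comparisons the difference of PHO4 was between -0.75 and 0.03.

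**Figure D2:**
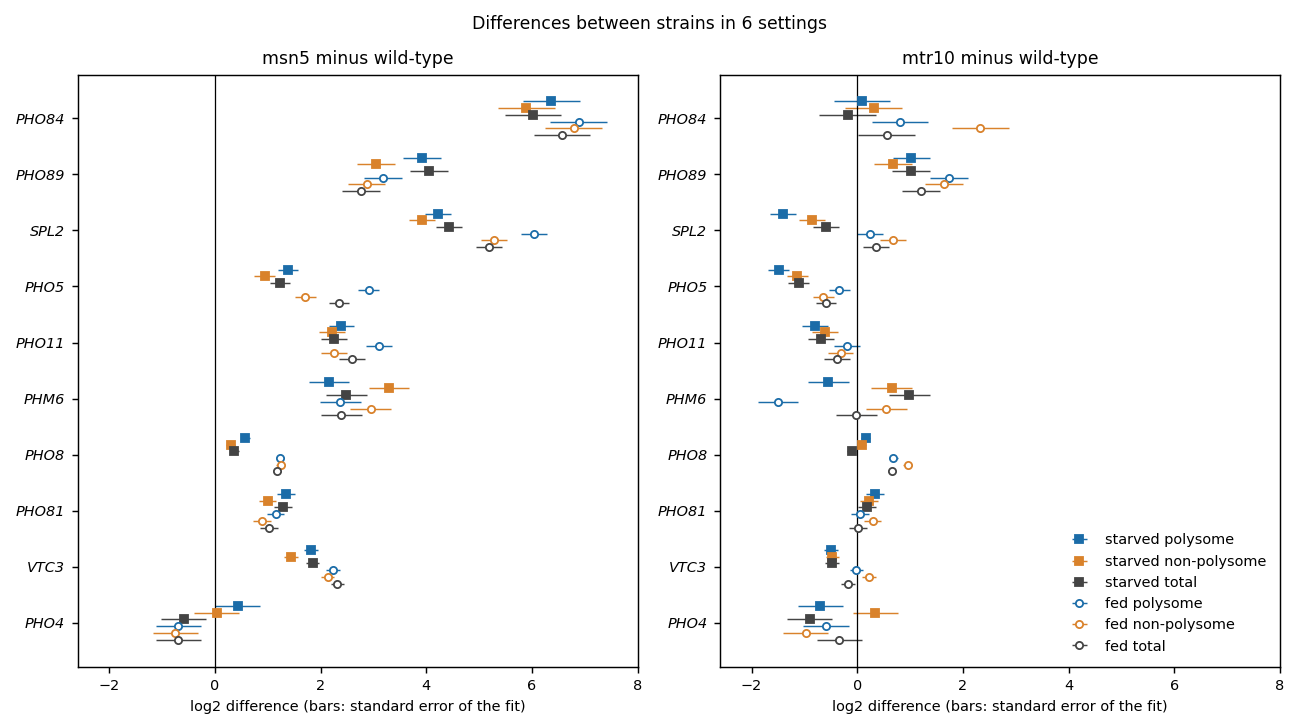
Differences of the 10 genes from wild-type (log2, horizontal axes, bars are standard errors of the fit) for msn5 (left) and mtr10 (right), with starved cells as filled squares, fed cells as open circles and colours for the kind of RNA. In msn5 all 6 differences of every gene but PHO4 lie above 0, up to 6.88 for PHO84. In mtr10 they lie on both sides of 0, with PHO5 and PHO11 below it and PHO89 above it in all 6.

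Of 26 other measured genes of the pathway, a list of regulators, transporters, phosphatases and polyphosphate enzymes, 8 to 13 were called in each msn5 comparison, where 489 to 1303 of all 5338 genes were called, and most of them were higher. Of these, in fed total RNA 10 were higher and 1 lower, and in starved total RNA 10 were higher and 3 lower. PHM8 was called higher in fed total (1.32 ± 0.39, adjusted p = 0.0298) and fed non-polysome RNA (1.82 ± 0.39, adjusted p = 0.00234) and in no other msn5 comparison. Leaving out any of the 4 arrays ended its fed total call. VTC4, the catalytic subunit of the polyphosphate complex, was higher in all 6, by 1.03 to 1.13. It averaged 12.89 in fed msn5 total RNA and 11.82 in wild-type (1.06 ± 0.10, adjusted p = 1.85e-07). The other subunits, VTC1 and VTC2, were also higher in all 6, by 0.56 to 1.03 for VTC1 and by 0.54 to 0.81 for VTC2. Single arrays ended the calls of VTC1 in fed polysome RNA (0.50, adjusted p = 0.051, without the second msn5 array) and of VTC2 in the 3 fed comparisons (0.43 to 0.60, highest adjusted p = 0.166). PHO86, which helps Pho84 leave the endoplasmic reticulum, was higher in all 6 by 0.47 to 0.69.

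Some pathway genes were called in msn5 in starved cells and not in fed ones. PHO87, a low-affinity phosphate transporter, averaged 11.72 in starved msn5 total RNA, against 10.79 in wild-type (0.93 ± 0.16, adjusted p = 0.000263). It was called in the 3 starved comparisons and in none of the fed ones. GIT1, a transporter of glycerophosphoinositol, had the same count of calls, with 0.95 ± 0.15 in starved non-polysome RNA (adjusted p = 0.000111). CTF19 was called higher in the same 3 comparisons, with 1.31 ± 0.26 in starved polysome RNA (adjusted p = 0.0012). Single arrays ended the calls of CTF19 in starved total and starved non-polysome RNA. PHM7 was lower, with means of 8.46 in starved msn5 total RNA and 10.09 in wild-type (-1.63 ± 0.36, adjusted p = 0.00266), and its call ended without the first msn5 or the first wild-type array (-1.20 to -1.17, adjusted p up to 0.0711). The limma test of a different starvation change in msn5 and wild-type called none of the 26, among them PHO87 (0.83 ± 0.23, adjusted p = 0.0904), GIT1 (0.40 ± 0.21, adjusted p = 0.595) and PHM7 (-1.29 ± 0.51, adjusted p = 0.363). At an unadjusted p under 0.05 it gave 501 of all genes. PHO3, the acid phosphatase gene next to PHO5 that thiamine rather than phosphate controls, was lower in msn5 in all 6 by 0.55 to 0.81. Its fed total call was ended by leaving out any of the 4 arrays, with adjusted p up to 0.186, and its other fed calls and its starved total call by 1 or 2 arrays, with adjusted p up to 0.226.

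In mtr10 between 3 and 6 of the 10 genes were called in each of the 6 comparisons with wild-type. The calls went in both directions in 5 of these comparisons and were all lower in starved non-polysome RNA. These comparisons use the same wild-type arrays as those of msn5. In fed total RNA 3 were called (2 higher and 1 lower), where 39.5% of all genes were called. In starved total RNA it was 6 (2 higher and 4 lower) against 54.2% of all genes, in fed polysome RNA 3 (2 higher and 1 lower) against 39.7%, and in starved polysome RNA 5 (1 higher and 4 lower) against 52.6%. In non-polysome RNA it was 5 in fed cells (4 higher and 1 lower) against 48.8%, and 4 in starved cells, all lower, against 52.4%. These counts are near the share over all genes. The median of the 10 genes was -0.0028 in fed and -0.33 in starved total RNA.

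The acid phosphatase genes were on the low side in mtr10. PHO5 read 8.18 and 8.26 in fed mtr10 total RNA, against 8.77 and 8.85 in wild-type, and 8.98 and 9.11 in starved mtr10, against 10.25 and 10.06 in wild-type. In all 6 settings both mtr10 arrays of PHO5 lay below both wild-type arrays. The starved difference was -1.11 ± 0.20 in total RNA (2.16-fold lower, adjusted p = 6.29e-05), -1.49 ± 0.20 in polysome RNA (adjusted p = 1.84e-06) and -1.14 ± 0.20 in non-polysome RNA (adjusted p = 4.94e-05). In fed cells it was -0.59 ± 0.20 in total RNA (adjusted p = 0.0196), a call that leaving out any of the 4 arrays ended (-0.63 to -0.55, adjusted p from 0.0589 to 0.098). The fed non-polysome difference of -0.64 ± 0.20 (adjusted p = 0.00967) was ended without the first mtr10 or the first wild-type array (-0.61 to -0.53, adjusted p up to 0.0888).

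PHO11 had the same order of arrays in all 6 settings and was called lower in the 3 starved ones. In starved polysome RNA it read 9.20 and 9.09 in mtr10, against 9.95 in both wild-type arrays (-0.81 ± 0.25, adjusted p = 0.00847), and without the second mtr10 array it was -0.75 (adjusted p = 0.0513). In starved total RNA it read 9.97 and 9.62 in mtr10, against 10.41 and 10.53 in wild-type (-0.68 ± 0.25, adjusted p = 0.0231). That call ended without either wild-type array or the second mtr10 array (-0.74 to -0.50, adjusted p from 0.0542 to 0.186). The starved non-polysome call (-0.62 ± 0.25, adjusted p = 0.0394) ended in the same way, with adjusted p from 0.108 to 0.222.

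PHO89 was on the high side in mtr10. It read 9.55 and 9.97 in fed mtr10 total RNA, against 8.41 and 8.68 in wild-type, and both mtr10 arrays lay above both wild-type arrays in all 6 settings. The difference was 1.21 ± 0.36 in fed total RNA (adjusted p = 0.0103) and 1.65 ± 0.36 in fed non-polysome RNA (adjusted p = 0.000712). In fed polysome RNA, where wild-type was not well above background, mtr10 was at least 3.35-fold higher (means of 9.88 in mtr10 and 8.13 in wild-type, adjusted p = 0.000488). Its calls in total RNA and in starved polysome RNA depended on single arrays. Without the second mtr10 or the first wild-type array the fed total difference was 1.08 to 1.00 with adjusted p from 0.0806 to 0.0967. The starved total difference of 1.01 ± 0.36 lost its call without either mtr10 array or the first wild-type array (adjusted p from 0.0717 to 0.139), and so did the starved polysome difference of 1.03 ± 0.36 (adjusted p from 0.0619 to 0.125).

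PHO8 was called higher in mtr10 in the 3 fed comparisons. In fed total RNA it read 11.72 and 11.71 in mtr10, against 10.999 and 11.122 in wild-type (0.66 ± 0.08, adjusted p = 2.52e-06), and in fed non-polysome RNA the difference was 0.95 ± 0.08 (adjusted p = 1.26e-08). In starved total RNA the values were 12.50 and 12.48 in mtr10 and 12.60 and 12.58 in wild-type (-0.10 ± 0.08, adjusted p = 0.311). The change of this difference with condition is tested below.

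PHO84, SPL2 and VTC3, among the genes with the largest rises in msn5, had none of comparable size in mtr10. In fed total RNA PHO84 read 7.39 and 8.01 in mtr10, against 7.18 and 7.11 in wild-type (0.56 ± 0.54, adjusted p = 0.435). With all arrays it was called in fed non-polysome RNA and in no other mtr10 comparison, with 7.74 and 10.92 in mtr10, against 6.77 and 7.23 in wild-type (2.33 ± 0.54, adjusted p = 0.00114). Without the divergent array this difference was 0.74 (adjusted p = 0.0503), while in fed polysome RNA it was then called at 0.80 (adjusted p = 0.0105, against 0.249 with all arrays). SPL2 was lower in starved mtr10, most in polysome RNA, with 6.77 and 6.79 in mtr10, against 8.23 and 8.13 in wild-type (-1.40 ± 0.25, adjusted p = 6.59e-05). The SPL2 calls in starved total RNA (-0.59 ± 0.25, adjusted p = 0.0481) and starved non-polysome RNA (-0.86 ± 0.25, adjusted p = 0.00555) ended without any of the 4 arrays in total RNA (adjusted p up to 0.187) and without the first wild-type or second mtr10 array in non-polysome RNA (adjusted p up to 0.0878). Its fed non-polysome rise (0.68 ± 0.25, adjusted p = 0.0271) ended without the second mtr10 or the first wild-type array (0.33 to 0.54, adjusted p up to 0.364).

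VTC3 was lower in starved mtr10 by 0.47 to 0.50 on the log2 scale. In starved polysome RNA it read 10.86 and 10.78 in mtr10, against 11.42 and 11.23 in wild-type (-0.50 ± 0.13, adjusted p = 0.0027). The starved total call ended without the first wild-type array (-0.38, adjusted p = 0.059). PHM6 took both directions, lower in fed polysome RNA (4.98 and 5.97 in mtr10 and 7.01 and 6.95 in wild-type, -1.50 ± 0.39, adjusted p = 0.0034) and higher in starved total RNA (6.97 and 6.82 in mtr10 and 5.59 and 6.24 in wild-type, 0.98 ± 0.39, adjusted p = 0.0356). Without the first mtr10 array the fed polysome difference was -1.01 (adjusted p = 0.102), and the starved total call ended without either mtr10 array or the first wild-type array (0.66 to 1.06, adjusted p up to 0.265). PHO81 and PHO4 were called in no mtr10 comparison in the main fit. At least 1 alternative fit called PHO4 lower in each of fed total, starved total and starved polysome RNA. Both mtr10 arrays of PHO4 lay below both wild-type arrays in 4 of the 6 settings. Its means were 9.90 in mtr10 and 10.88 in wild-type fed non-polysome RNA, and 11.07 and 11.98 in starved total RNA. In starved non-polysome RNA the mtr10 mean was the higher one (11.13, against 10.78). For PHO4 the starved polysome difference of -0.70 ± 0.43 (adjusted p = 0.175) became -1.36 without the second wild-type array and -0.04 without the first.

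Of the 26 other pathway genes, 14 to 17 were called in each mtr10 comparison, where 39.5% to 54.2% of all genes were called. PHO92, an RNA-binding protein that acts on the PHO4 message, was higher in all 6 by 0.79 to 2.64. It averaged 8.15 in fed mtr10 total RNA and 5.57 in wild-type (2.58 ± 0.15, adjusted p = 2.37e-11). GPP2, a glycerol phosphate phosphatase, was lower in all 6 (-1.70 ± 0.12 in fed total RNA, adjusted p = 1.27e-09). In msn5 GPP2 went the other way and was called higher in all 6, by 0.39 to 1.17. Single arrays ended these msn5 calls in starved total, fed polysome and starved polysome RNA. PHO2, the partner of Pho4, was higher in all 6 by 0.57 to 1.01, and PHO3 was higher in all 6 by 0.57 to 0.93. Its fed non-polysome call ended without the second mtr10 array (0.47, adjusted p = 0.0526). PHO80, the cyclin gene, was called lower in 5 of the 6 comparisons, while its fed non-polysome difference was 0.26 ± 0.11 (adjusted p = 0.0533). It averaged 10.67 in starved mtr10 total RNA and 11.77 in wild-type (-1.11 ± 0.11, adjusted p = 3.74e-08), and its fed total call (-0.33 ± 0.11, adjusted p = 0.021) ended without the second mtr10 or the first wild-type array (adjusted p from 0.144 to 0.176). The kinase gene PHO85 was lower in all 6 and averaged 11.17 in starved mtr10 polysome RNA and 12.19 in wild-type (-1.02 ± 0.12, adjusted p = 4.56e-07). The fed total call of PHO85 ended without the first mtr10 array (-0.38). Its fed non-polysome call ended without the second mtr10 or the second wild-type array (-0.36 to -0.35).

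Starvation for amino acids changed part of the 10 genes in total RNA. In msn5 3 were higher and 1 lower in starved cells, where 61.0% of all genes were called in either direction. In mtr10 2 were called, both higher, where 48.7% of all genes were called in either direction. In wild-type 6 were higher and 1 lower, against 64.2%. The counts are near or below these shares. The median of the 10 genes was 0.30 in msn5, 0.27 in mtr10 and 0.89 in wild-type.

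**Figure D3:**
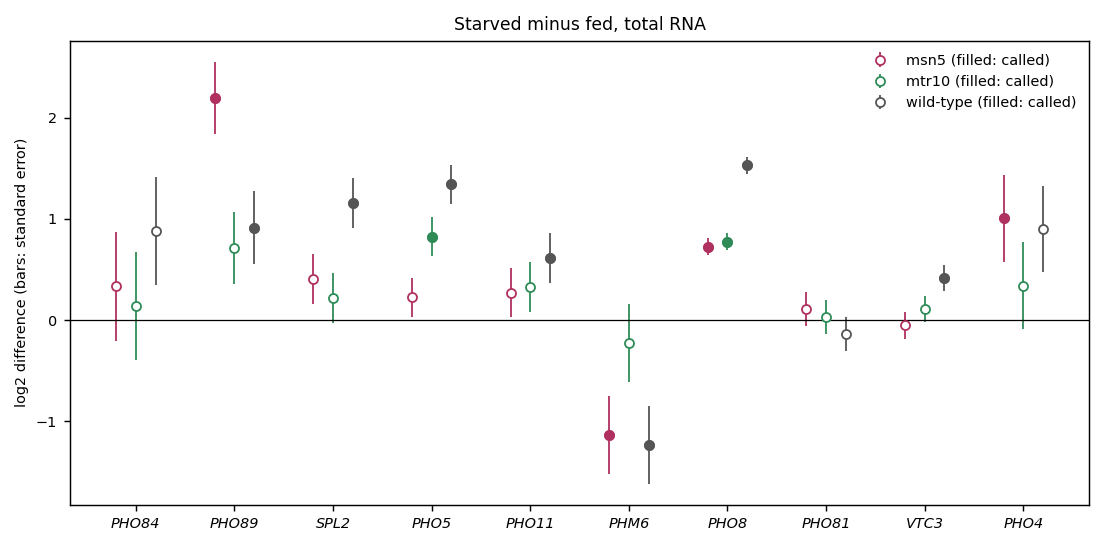
Difference of starved minus fed cells in total RNA (log2, vertical axis, bars are standard errors of the fit) for each gene, with msn5, mtr10 and wild-type from left to right. Filled points were called. The wild-type points of PHO8, PHO5 and SPL2 lie above those of both mutants, and PHO89 in msn5 has the largest rise, 2.20.

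PHO8 rose in all 3 strains. It was higher in starved than in fed cells by 0.72 ± 0.08 in msn5, by 0.77 ± 0.08 in mtr10 and by 1.53 ± 0.08 in wild-type (2.89-fold, adjusted p = 1.54e-12). The arrays of the conditions did not overlap in any strain, and in fed cells the levels were 12.25 and 12.22 in msn5, 11.72 and 11.71 in mtr10 and 10.999 and 11.122 in wild-type. The rise was smaller than in wild-type by 0.81 on the log2 scale in msn5 (difference -0.81 ± 0.12, adjusted p = 0.000554) and by 0.76 in mtr10 (-0.76 ± 0.12, adjusted p = 0.000162). PHO8 was the only one of the 10 genes called in either test of a different starvation change, where 0.693% of all genes were called for msn5 and 14.3% for mtr10.

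PHO5 rose with starvation in mtr10 and wild-type. In msn5 the starved values of 11.65 and 11.11 overlapped the fed values of 11.32 and 10.99 (0.22 ± 0.20, adjusted p = 0.33). In mtr10 it read 8.98 and 9.11 in starved cells, against 8.18 and 8.26 in fed cells (0.83 ± 0.20, adjusted p = 0.00136). In wild-type it read 10.25 and 10.06 in starved cells, against 8.77 and 8.85 in fed cells (1.34 ± 0.20, 2.53-fold, adjusted p = 3.77e-06). The change in msn5 minus that in wild-type was -1.12 ± 0.28 and missed the threshold (adjusted p = 0.0611), and it was -1.39 (adjusted p = 0.0209) without the first starved msn5 array.

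SPL2 rose in wild-type, with 8.43 and 8.49 in starved cells, against 7.45 and 7.15 in fed cells (1.16 ± 0.25, adjusted p = 0.00031). PHO89 rose most in msn5, with 13.77 and 13.26 in starved cells, against 11.88 and 10.75 in fed cells (2.20 ± 0.36, 4.58-fold, adjusted p = 2.21e-05). In wild-type its rise was 0.91 ± 0.36 (adjusted p = 0.0305), a call that ended without either fed array or the second starved array (0.72 to 1.05, adjusted p up to 0.168), and the difference between these changes was not called (1.28 ± 0.51, adjusted p = 0.36). PHO11 rose by 0.62 ± 0.25 in wild-type (adjusted p = 0.0326), which leaving out any of the 4 arrays ended (adjusted p from 0.0668 to 0.127), and VTC3 by 0.42 ± 0.13 (adjusted p = 0.00785), which ended without the first starved array (0.32, adjusted p = 0.0975). PHO84 was not called in wild-type (0.88 ± 0.54, adjusted p = 0.153), but was without the divergent mtr10 array (adjusted p = 0.00308).

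PHM6 was the gene that fell with starvation in msn5 and wild-type, while its change in mtr10 was not called (-0.23, adjusted p = 0.652). It read 8.81 and 7.98 in starved msn5, against 9.95 and 9.12 in fed msn5 (-1.14 ± 0.39, adjusted p = 0.0144), and 5.59 and 6.24 in starved wild-type, against 7.01 and 7.29 in fed wild-type (-1.23 ± 0.39, adjusted p = 0.00807). The wild-type call ended without the second fed or the first starved array (-1.10 to -0.91, adjusted p up to 0.106) and the msn5 call without the first fed or the second starved array (-0.72, adjusted p up to 0.196). With a replicate block for the split cultures of each strain the msn5 call stood (adjusted p = 0.0096), and the same-numbered arrays fell by 1.14 and 1.13 on the log2 scale. PHO4 rose in msn5, with 11.37 and 11.40 in starved cells, against 10.24 and 10.52 in fed cells (1.00 ± 0.43, adjusted p = 0.0462), which leaving out any of the 4 arrays or the divergent mtr10 array ended (adjusted p from 0.052 to 0.184), as did the replicate block for split cultures (adjusted p = 0.0658). Its wild-type difference of 0.90 ± 0.43 was not called (adjusted p = 0.0685). PHO81 was not called in any strain, with differences from -0.14 to 0.11. Among the other pathway genes PHO3 fell most, with differences of -2.44 in msn5, -2.28 in mtr10 and -2.45 in wild-type, and PHM8, a lysophosphatidic acid phosphatase, rose by 1.76 ± 0.39 in mtr10 and 1.50 ± 0.39 in wild-type.

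The polysome and non-polysome pools were compared for each strain and condition. Values of a pool are relative to the other messages in it, since every array was given the same distribution. Of the 10 genes, 4 were called in starved msn5 (2 higher in polysome RNA and 2 lower), where 67.6% of all genes were called. In fed msn5 2 were called, both lower, where 54.6% were called in either direction and 1401 were lower. In starved mtr10 5 were called, all lower, where 68.4% of all genes were called in either direction and 1755 were lower. In fed mtr10 7 were called, all lower, where 59.5% were called in either direction and 1504 were lower. In starved wild-type 3 were called, all lower, where 63.1% were called in either direction and 1549 were lower. In fed wild-type 4 were called, all lower, where 51.0% were called in either direction and 1310 were lower.

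**Figure D4:**
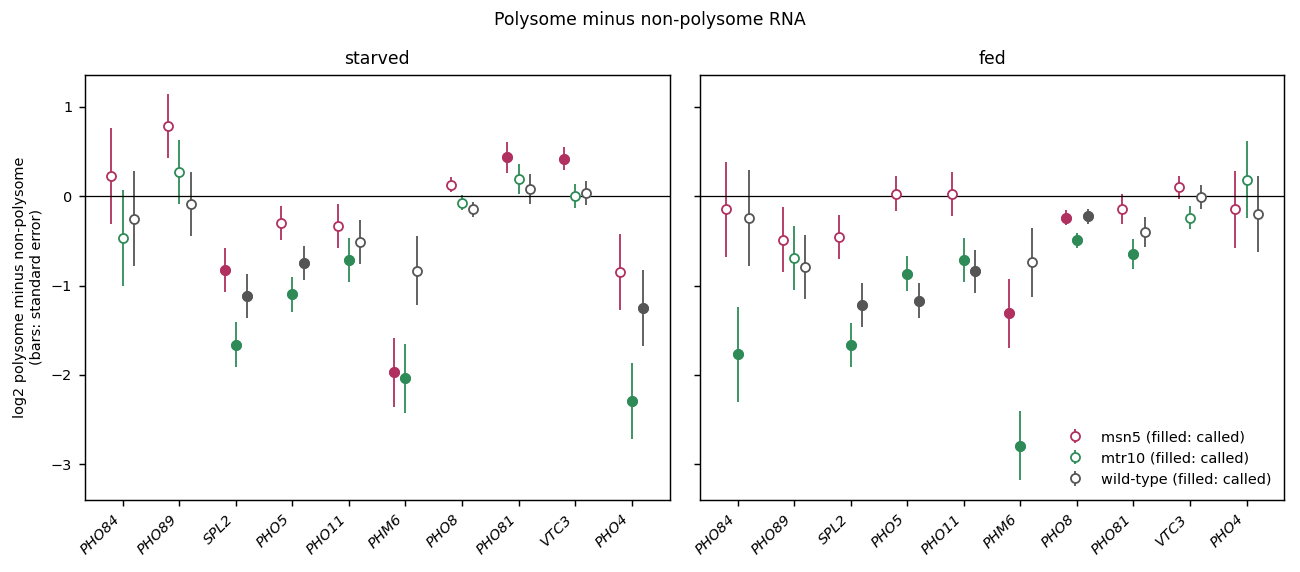
Polysome minus non-polysome RNA (log2, vertical axis, bars are standard errors of the fit) for each gene in starved (left) and fed cells (right), with msn5, mtr10 and wild-type from left to right. Filled points were called. SPL2, PHO5, PHO11 and PHM6 lie below 0 in mtr10 and wild-type, while PHO5 and PHO11 lie at 0.03 and 0.02 in fed msn5.

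SPL2 was the gene most often lower in polysome RNA, in 5 of the 6 comparisons. In fed mtr10 it read 6.51 and 6.61 in polysome and 7.87 and 8.57 in non-polysome RNA (-1.66 ± 0.25, adjusted p = 5.97e-06), and in fed wild-type 6.49 and 6.16 in polysome and 7.41 and 7.68 in non-polysome RNA (-1.22 ± 0.25, adjusted p = 0.000285). In fed msn5 its pools overlapped, with 12.12 and 12.62 in polysome and 13.18 and 12.48 in non-polysome RNA (-0.46 ± 0.25, adjusted p = 0.119), and without the second non-polysome array the difference was called at -0.81 (adjusted p = 0.0221). The starved msn5 call (-0.83 ± 0.25, adjusted p = 0.00538) ended without the first non-polysome array (-0.57, adjusted p = 0.101).

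PHO5 was lower in polysome RNA in mtr10 and wild-type in both conditions. In fed msn5 it read 10.95 and 11.27 in polysome and 11.31 and 10.85 in non-polysome RNA (0.03 ± 0.20, adjusted p = 0.922). In fed wild-type it read 8.19 and 8.21 in polysome and 9.41 and 9.34 in non-polysome RNA (-1.17 ± 0.20, adjusted p = 3.44e-05). The difference between these ratios was 1.20 ± 0.28 but was not called (adjusted p = 0.126). None of the 10 genes was called in the tests of a different ratio in msn5 and wild-type, in fed cells, where limma called 0.0562% of all genes, or in starved cells, where it called 0.0749%. At an unadjusted p under 0.05 these tests gave 241 and 365 genes, and in deposited MAS5 signals, another summary of the same arrays, they gave up to 2 of the 10.

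PHM6 had the largest single ratio. In fed mtr10 it read 4.98 and 5.97 in polysome and 8.21 and 8.33 in non-polysome RNA (-2.79 ± 0.39, 6.92-fold lower, adjusted p = 2.39e-06). In starved msn5 it read 7.85 and 7.50 in polysome and 10.19 and 9.09 in non-polysome RNA (-1.97 ± 0.39, adjusted p = 0.000121). The largest ratio of PHO4 was in starved mtr10, where it read 8.88 and 8.79 in polysome and 11.34 and 10.92 in non-polysome RNA (-2.29 ± 0.43, 4.91-fold lower, adjusted p = 6.6e-05), while in fed mtr10 the pools overlapped (0.18 ± 0.43, adjusted p = 0.729). In starved wild-type the difference of -1.25 ± 0.43 (adjusted p = 0.0144) was -0.59 without the second polysome array (adjusted p = 0.292). In starved msn5 the difference was -0.85 ± 0.43 (adjusted p = 0.0821), and it was -1.91 without the second polysome array. The polysome arrays there read 8.91 and 11.02, the first below and the second above both non-polysome arrays (10.64 and 10.99). The change of these ratios between conditions was not tested.

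In starved mtr10 PHM6 (-2.03 ± 0.39, adjusted p = 8.12e-05) and SPL2 (-1.66 ± 0.25, adjusted p = 4.17e-06) were lower in polysome RNA under every alternative that held them. The fit without the dimmest genes did not hold these 2. PHO11 in fed wild-type (-0.84 ± 0.25, adjusted p = 0.00649) was lower under every alternative run. PHO11 was also called in starved mtr10 (-0.71 ± 0.25, adjusted p = 0.014) and fed mtr10 (-0.72 ± 0.25, adjusted p = 0.0154), which 2 and 4 arrays ended when left out singly (adjusted p up to 0.117). The PHM6 call in fed msn5 (-1.31 ± 0.39, adjusted p = 0.00646) ended without the first array of either pool (-1.02 to -0.80, adjusted p up to 0.146). In fed mtr10 PHO84 (-1.77 ± 0.54, adjusted p = 0.00714) was -0.18 without the divergent array and was not called then (adjusted p = 0.633), and without the first polysome array it was -1.48 (adjusted p = 0.0694). PHO81 (-0.65 ± 0.17, adjusted p = 0.00235) was -0.44 without the divergent array (adjusted p = 0.0625). In starved msn5 VTC3 (0.42 ± 0.13, adjusted p = 0.00711) and PHO81 (0.43 ± 0.17, adjusted p = 0.0277) were the 2 genes higher in polysome RNA. In MAS5 signals VTC3 was on the other side, at -0.20, where the median over all genes was -0.14. The VTC3 call ended without the second non-polysome array (0.29, adjusted p = 0.1) and the other without 3 of the 4 arrays taken singly (0.12 to 0.44, adjusted p up to 0.561). PHO8 was lower in fed polysome RNA of all 3 strains by 0.23 to 0.49 on the log2 scale, and its msn5 and wild-type calls ended when single arrays were left out (adjusted p up to 0.454).

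Over the 18 group means, the genes whose levels were most like those of PHO84 among all 5338 were VTC3 (Pearson r = 0.97), SPL2 (0.97), PHO11 (0.95), VTC4 (0.95) and PHO81 (0.94). These are correlations of group means that share strains and conditions and are given as a description. Among the other genes of the 10, PHO89 had r = 0.88, PHO5 0.84, PHM6 0.79 and PHO8 0.55, and PHO4 had r = -0.09. The genes most like PHO4 were SGF29 (0.92), PET122 (0.89), YER152C (0.86), AQY2 (0.85) and YBL111C (0.85), none of which is in the lists of pathway genes.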

How the data were processed

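The authors deposited log2 RMA signals, made with the affy package per the submitters' processing notes, whose version is not given in the sources used. A deposited second table holds the MAS5 intensity of each probe set on a linear scale, and beside it the p-value of detection, used here with a threshold of 0.05. The intensities, as log2 with each array centred on its median, served as an alternative. Matched by correlation, 2 of its columns, the first of fed and of starved wild-type total RNA, hold the other condition.

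Of 5684 probe sets, 5379 carry 1 gene, 95 are controls and 210 have none. The probe set with the highest mean was kept for 39 genes with several, which left 5338. Groups came from the labels. Probe sets were named from the platform annotation, with 12 symbols updated through their Entrez numbers in the RefSeq table.

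A mean for each of 18 groups was fitted with limma 3.58.1 (R 4.3.3, lmFit and eBayes, two-sided, 18 residual and 3.92 prior degrees of freedom), with 25 comparisons, each adjusted over all genes, and was tested on simulated data. The named genes are the 10 members, MSN5, MTR10 and PSE1, the 4 mating type markers listed as strain checks, up to 6 other called pathway genes with the largest differences in each comparison of strains or of starvation, and the 5 genes most like PHO84 or PHO4. Genes and lists were chosen with earlier results of these data known. Of 29 other pathway genes listed, 26 were measured. The alternatives left out arrays, limited the fit to the groups compared, added the replicate number, changed the scaling, the variance prior, the filter on dim genes or the probe set rule, or used MAS5 signals. Over 153 pairs of groups the correlation of same-numbered arrays' deviations ran from -0.66 to 0.64, with a median of 0.06. The numbers thus did not pair the arrays in one way across all groups. Between polysome and non-polysome RNA it was 0.42 in starved and -0.50 in fed msn5, and -0.20 in starved and -0.04 in fed mtr10. In wild-type it was 0.37 in starved and 0.46 in fed cells. No block within a strain was fitted for the pool comparisons. Per the labels cultures were split into starved and fed, and for these pairs of total RNA the correlation was 0.28 in msn5, 0.24 in mtr10 and 0.18 in wild-type, so a replicate block within each strain was added for the starvation comparisons after seeing the data. Sequences and coordinates were not used here.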

Additional observations from a re-analysis of the deposited data

Results flagged for a closer look

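In total RNA, 5 starvation changes differed between a mutant and wild-type by the test of that difference itself. PHO8 rose less in msn5 than in wild-type, by -0.81 (adjusted p = 0.000554, limma), and less in mtr10 than in wild-type, by -0.76 (adjusted p = 0.000162). Among the other pathway genes, PHO80 differed by -0.78 in mtr10 (adjusted p = 0.00153) and PHO92 by -0.82 (adjusted p = 0.0104). GPP2 differed by 0.59 in mtr10 (adjusted p = 0.0276). Without the second fed mtr10 array PHO92 was -0.74 (adjusted p = 0.0535), and 6 of the 8 arrays ended the GPP2 call when left out singly (0.39 to 0.62, adjusted p up to 0.17). Both comparisons of PHO8 share the wild-type arrays.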

How the results depend on the processing

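Of 120 called differences of the 10 genes, 65 stayed called in the same direction under every alternative run, among them 47 of the 54 calls of msn5 against wild-type. Counts of called members that moved by over 1.5 times are given next. In MAS5 signals with columns as named, 2 of which hold the other condition of wild-type total RNA, the mtr10 counts against wild-type were 1 (fed total), 1 (starved total), 1 (fed polysome), 3 (starved polysome), 2 (fed non-polysome) and 2 (starved non-polysome). The starvation counts were 1 in msn5, 0 in mtr10 and 0 in wild-type, both tests of a different starvation change gave 0, and the pool count in starved msn5 was 1. Reversed there were SPL2 in starved mtr10 total RNA (0.23), PHO5 in wild-type starvation (-0.026) and the PHO8 starvation difference in msn5 (0.40) and mtr10 (0.70). Without those columns the PHO8 values were -1.18 and -0.88. The mtr10 count was then 3 in starved total RNA, the pool counts 5 in starved and 7 in fed wild-type, and 2 pool ratios differed between fed msn5 and wild-type. PHO8 (-0.52) and VTC3 (-0.20, in both MAS5 settings) reversed between the pools of starved msn5, where the median of all genes was -0.14, against -0.15 in starved mtr10. The cause was not tested.

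With only the groups compared in the fit, which leaves fewer samples, mtr10 gave 5 in fed total and 5 in fed polysome RNA, the starvation differences gave 0 for msn5 and 4 for mtr10, and the msn5 pools 2 in starved and 1 in fed cells. With the dimmest genes left out (the lowest 20% by mean level), 8 of the 10 remained in the fit. SPL2 and PHM6 were left out and so were not judged under this alternative. The pools then gave 2 in starved msn5, 1 in fed msn5 and 3 in starved mtr10. With all genes, SPL2, PHM6 or both were among the calls of each of these pools. Centred arrays gave 2 for the starvation difference of msn5. Without the 4 fed non-polysome arrays of the mutants, chosen after seeing the data, that of mtr10 gave 2.

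With the replicate block, the counts were 9 in each msn5 comparison with wild-type and 4 in the starved and 5 in the fed wild-type pools, and no count moved by over 1.5 times. With the replicate block within each strain, the starvation counts were 3 in msn5, 2 in mtr10 and 7 in wild-type, and PHO4 in msn5 was the member whose call changed. Leaving out single arrays gave 9 to 9 calls in 4 of the msn5 comparisons with wild-type, 9 to 10 in starved polysome and 8 to 9 in starved non-polysome RNA. For mtr10 it gave 1 to 2 (fed total), 1 to 4 (starved total), 2 to 3 (fed polysome), 3 to 6 (starved polysome), 3 to 5 (fed non-polysome) and 2 to 4 (starved non-polysome). Starvation gave 2 to 3 in msn5, 2 to 2 in mtr10 and 4 to 5 in wild-type, and its differences 1 to 2 for msn5 and 1 to 1 for mtr10. The pools gave 3 to 5 in starved and 0 to 3 in fed msn5, 4 to 5 in starved and 4 to 6 in fed mtr10, 2 to 3 in starved and 3 to 4 in fed wild-type, and their differences 0 to 0. With 2 arrays a group, small differences stay below detection.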
